A study of Mus musculus with 12 samples.

Results

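Histone methylation enzymes and the corepressors that work beside them were followed as 40 named genes in mouse small bowel RNA-seq. The list held 8 methyltransferases of histone H3 lysine 4 (H3K4), 4 of H3K36 or H3K79, 6 of H3K9 and 2 of H3K27, 3 other SET domain proteins, 12 demethylases, and 5 acetyltransferases or corepressors. The names were matched to the gene symbols of the deposited count files, and 40 of 40 were found among 35791 genes. All 40 passed the filter on low counts, which left 13154 genes for testing. The members were chosen by name with results of these libraries already known, namely their CPM and log2 changes in the 4 groups and the length of their transcripts. Counts of members called below therefore describe the list and do not stand as independent evidence of a direction.

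The study removed the ileum and cecum together (ileocecal resection) in male C57BL/6 mice aged 8 to 10 weeks and asked how small bowel expression differed before and after surgery and with or without 2'-fucosyllactose (2'-FL), a sugar of human milk. There were 4 groups of 3 libraries. Pre control and Post control came from mice without the supplement, labelled as before and after resection, and Pre 2'-FL and Post 2'-FL carried the same labels with supplementation. Supplementation at 2.5 g/L started with surgery (day 0), liquid diet was given at day 7 and then replaced by standard chow in all mice, and bowel was collected at 8 weeks. The protocol text gives this single collection time for all bowels, so when the libraries labelled as before resection were taken, and how a Pre library could be supplemented when the sugar began on day 0, cannot be told from the labels. No segment of the small bowel is named, and nothing says whether libraries of a group came from separate mice, so each p-value measures the spread between libraries, which may be technical.

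Histones are marked by methyl groups on lysines of their tails, and the marks are written by methyltransferases, most of which carry a SET domain, and removed by demethylases. Methylated H3K4 is typical of active promoters and enhancers and H3K36 methylation of transcribed gene bodies, whereas H3K9 and H3K27 methylation go with silenced chromatin. In the intestine these enzymes are studied for their part in keeping crypt stem cells and in the differentiation of absorptive and secretory cells. The label does not cover every member in the same way. Crebbp and Ep300 are histone acetyltransferases and coactivators, Setd3 is known as an actin histidine methyltransferase, and Smyd2 and Setd7 also act on proteins other than histones. Kmt2e has no clear methyltransferase activity and is counted with the H3K4 enzymes here by its family alone.

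Promoters of Spen, Kmt2d and Kmt2c are printed because these are 3 of the longest transcripts of the list and behaved differently: Spen and Kmt2d fell in the Post 2'-FL libraries, and Kmt2c did not pass the test. Each is the 250 bases before the start of the gene, read 5′ to 3′ on the gene's own minus strand from the RefSeq promoter table (GRCm38.p6), with every GGGCGG (the GC box, either strand) in capitals. The windows are chr4:141538598-141538847 for Spen, chr15:98871206-98871455 for Kmt2d and chr5:25498784-25499033 for Kmt2c.
Spen: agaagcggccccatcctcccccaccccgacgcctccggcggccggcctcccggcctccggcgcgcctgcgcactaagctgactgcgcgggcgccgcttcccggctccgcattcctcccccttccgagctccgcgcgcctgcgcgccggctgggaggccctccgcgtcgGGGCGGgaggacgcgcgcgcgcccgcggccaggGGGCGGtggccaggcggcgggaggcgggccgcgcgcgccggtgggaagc
Kmt2d: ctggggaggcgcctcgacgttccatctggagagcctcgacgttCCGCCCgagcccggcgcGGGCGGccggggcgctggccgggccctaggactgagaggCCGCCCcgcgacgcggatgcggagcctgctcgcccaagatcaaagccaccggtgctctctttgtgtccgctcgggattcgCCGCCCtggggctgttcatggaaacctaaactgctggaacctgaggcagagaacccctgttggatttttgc
Kmt2c: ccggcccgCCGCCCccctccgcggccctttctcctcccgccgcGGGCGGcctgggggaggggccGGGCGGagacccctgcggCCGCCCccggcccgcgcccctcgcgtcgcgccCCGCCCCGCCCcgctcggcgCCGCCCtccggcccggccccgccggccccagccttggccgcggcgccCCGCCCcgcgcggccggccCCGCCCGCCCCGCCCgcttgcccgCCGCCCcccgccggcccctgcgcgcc
The Spen window held 2 GC boxes, that of Kmt2d 4 and that of Kmt2c 12. Of the members, 29 were in the promoter table. GGGCGG was present in 19 of these 29 (65.5%) and in 32.9% of all 27025 promoters of the same length. The sets are not alike: all promoters include genes too low to be tested here. A member's promoter was the listed one nearest the gene start, whereas other genes were read at their first listed promoter. Of the other motifs searched on both strands, CCAAT was in 8 members (27.6%) against 34.5% of all promoters, CACGTG in 1 (3.45%) against 6.05%, and TATAAA in 0 of 29 against 13.0%; no search excluded overlaps with another motif. The median member promoter held 24 CpG dinucleotides and 67.6% G and C, against 6 and 52.0% for all promoters. The 3 printed windows thus all carry the letters of a GC box, whichever way the gene moved, and a match of letters does not show that a factor binds there.

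Depth was 5663275 to 9385266 counts per library, and members had 5 to 2474 counts in a library. Averaged over the 12 libraries, member levels ran from 7.06 to 148 CPM (the gene's share of all counts in a library, scaled to a common total). Per kb of transcript they ran from 1.23 CPM for Kmt2a to 39.0 for Setd3, with a median of 4.25. Member transcripts were 1680 (Smyd2) to 19823 nt (Kmt2d) long with a median of 6781.5 nt, and 35 of 40 were longer than the median of all tested genes, 3037 nt. Across all genes, levels followed transcript length differently in different libraries. Spearman's rho between length and a library's level relative to the gene mean was 0.263 to 0.496 in the 6 Pre libraries, -0.0348, -0.207 and 0.355 in Post control 1, 2 and 3, and -0.600 to -0.441 in Post 2'-FL. Post control 3 therefore lay among the Pre libraries on this measure. Calls of members against Post control that change without it are also given without it, as are most counts of members. Values are given both as counted and after a correction that removes, within each library, the trend of all genes with transcript length and GC content (12655 genes with a known length). Of 8 enterocyte markers 0 were at 0 in all libraries, and 2 of 3 pancreas markers were.

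**Figure D1:**
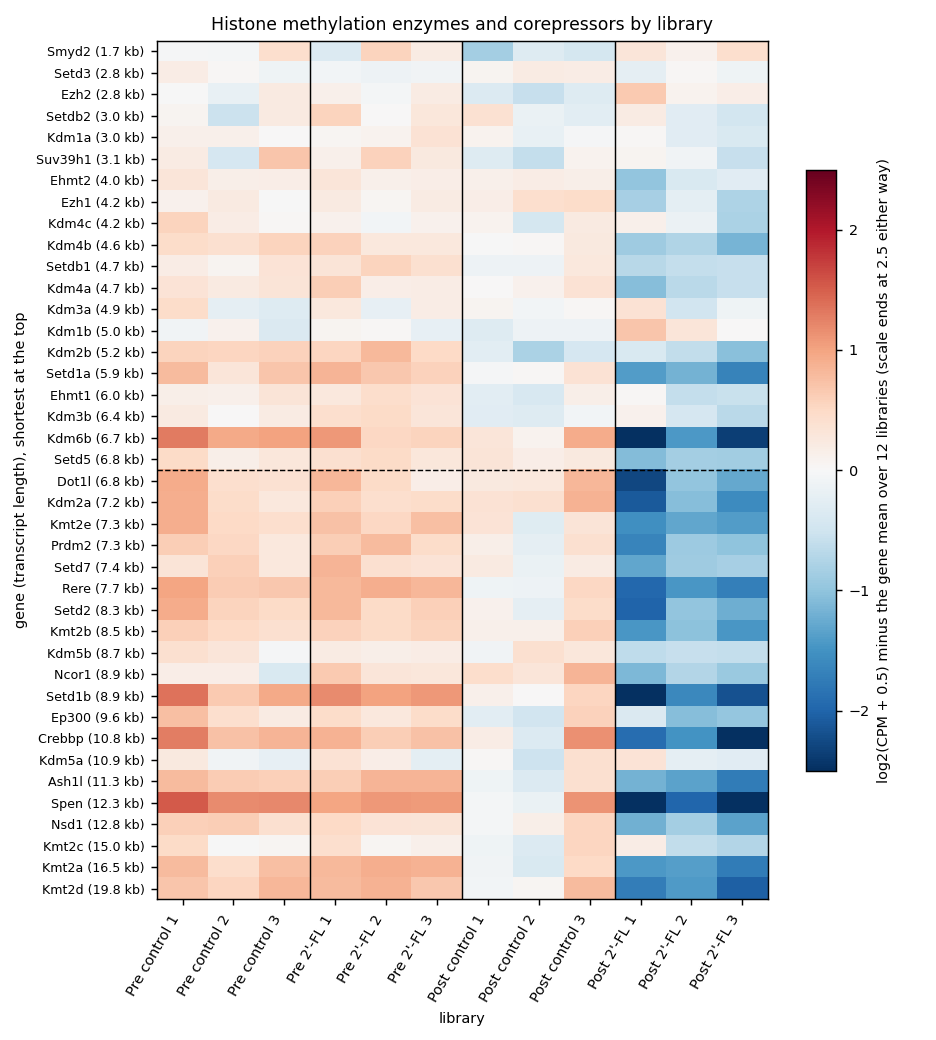
Rows are the 40 members from the shortest transcript at the top to the longest at the bottom, and columns are the 12 libraries in their 4 groups. Colour is log2(CPM + 0.5) minus the mean of the gene over the 12 libraries, with the scale ending at 2.5 either way; below the dashed line, which separates the 20 short from the 20 long members, most cells of the 3 Post 2'-FL columns are blue.

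After resection in the 2'-FL arm, 29 of the 40 members fell (Post 2'-FL against Pre 2'-FL, edgeR quasi-likelihood test, Benjamini-Hochberg adjusted p under 0.05 over all tested genes) and 0 rose. The background in this comparison was high: 30% of all tested genes were called lower and 25.3% higher. The median log2 change of the members was -1.33, against -0.13 over all genes. For 31 members all Post 2'-FL libraries lay below all Pre 2'-FL libraries and for 0 above them, against 33.7% and 27.9% of all genes. Between the supplemented and unsupplemented bowels after resection, 26 members were lower in Post 2'-FL and 3 higher, against a background of 19.3% lower and 18.8% higher, with a median of -1.01 (0.02 over all genes). Of these calls, Setdb1, Ep300 (both lower) and Kdm1b (higher) ended without Post control 3. These Post groups did not overlap for 26 members that were lower and 3 that were higher, against 25.4% and 25.2% of all genes. Both comparisons use the Post 2'-FL libraries, so they are not independent of each other. With the length and GC correction the first comparison called 14 lower and 4 higher (background 14.9% and 20.7%, median -0.19) and the second 18 lower and 2 higher (background 11.5% and 9.9%, median -0.48). Without Post control 3 and with the correction, the second gave 13 lower (background 4.64%) and 0 higher (background 3.7%).

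Markers of other cell types were called in the same comparisons, and in whole bowel fewer cells of a type and less RNA per cell cannot be told apart. In the 2'-FL arm 4 of 4 endothelial markers were lower (median -2.39, and 3 of 4 with a median of -1.77 corrected), with a summed level of 46.7 to 108 CPM in Pre 2'-FL and 10.8 to 17.3 CPM in Post 2'-FL. Their sum was 16.02 to 83.8 CPM in Pre control and 15.9 to 25.7 CPM in Post control. Of the 3 fat markers 2 could be tested, and both were lower in the 2'-FL arm (median -3.70), from 8.59 to 67.4 CPM in sum to 0.770 to 5.68 CPM. The fat sum was 2.42 to 5.82 CPM in Pre control and 0 to 6.21 CPM in Post control, so only the Pre 2'-FL libraries stood apart. Of 5 neuron and glia markers 3 were lower in that arm (21.3 to 24.7 and 7.24 to 10.4 CPM in sum) and 2 in the control arm (12.7 to 23.3 and 5.30 to 7.86 CPM). Against Post control, 0 of the endothelial, fat, and neuron and glia markers were lower in Post 2'-FL. Higher there were 1 of 5 neuron and glia (Uchl1), 2 of 5 smooth muscle, 2 of 5 fibroblast, 3 of 5 Paneth and 1 of 3 B and plasma cell markers. Of these 5 types 0 markers were lower (background 18.8% higher and 19.3% lower). Corrected, the counts higher were 0, 3, 2, 1 and 0 (background 9.9%). Of 8 enterocyte markers 3 were lower and 1 higher as counted, and of 4 myeloid markers 1 was lower and 1 higher. All 5 Paneth cell markers were lower in the control arm (15278 to 27157 CPM in sum in Pre control, 4588 to 6035 CPM in Post control) and 2 of 5 in the 2'-FL arm (9017 to 28515 and 9534 to 24558 CPM), or 5 of 5 corrected. Other types differed from each other in the 2'-FL arm (background 30% lower and 25.3% higher). Of 5 fibroblast markers 2 were lower and 0 higher, and of 4 myeloid markers 1 and 0. Corrected, these counts were 0 and 1 for fibroblast and 2 and 0 for myeloid markers (background 14.9% and 20.7%). Of 5 smooth muscle markers 1 was lower and 1 higher, and 0 of 3 T cell markers were called. Of 4 goblet markers 3 were lower and 1 higher, and of 8 enterocyte markers 2 and 2. The B and plasma cell sum was 291 to 844 CPM in Pre 2'-FL and 1178 to 1956 CPM in Post 2'-FL, with 1 of 3 markers called higher and 0 lower. The part of these cell types in the members' values was not tested.

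In the control arm, 1 member fell (Post control against Pre control, background 6.33% lower and 4.42% higher), namely Kdm2b, and the member median was -0.33 against -0.05 over all genes. The groups did not overlap for 14 members, 13 lower (background 17.6%) and 1 higher (background 17.3%). Corrected, this median turned to 0.03, with Kdm2b lower and Ezh1 and Ncor1 higher (background 5.21% and 7.78%); without Post control 3 as well, Ncor1 alone remained called (edgeR adjusted p = 0.014; 0.125 for Kdm2b and 0.0703 for Ezh1). The count was set by single libraries: 8 members fell without Post control 3 (background 6.09%), 0 without Post control 2 (background 0.923%) and 4 without Post 2'-FL 1 (background 7.52%). The 8 without Post control 3 were 2 H3K4 enzymes, 1 H3K36 or H3K79 enzyme, 1 demethylase and 4 acetyltransferases or corepressors. Before resection no member was called between the arms. In Pre 2'-FL against Pre control 0 members were called, and 0 had an unadjusted p under 0.05, where 0.0152% of all genes were called lower and 0% higher (0.0158% and 0% corrected); the DESeq2 Wald test also called 0. The groups did not overlap for 1 member that was lower and 3 that were higher, against 4.92% and 4.31% of all genes. The largest change there was 0.41 in size and the median 0.07.

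Whether the arms changed by different amounts was tested as an interaction (2'-FL arm minus control arm), which uses all 4 groups and so shares libraries with every comparison above. It was lower in the 2'-FL arm for 23 members and higher for 0 (background 8.03% and 7.47%), with a median of -1.003. After the correction 0 members and 0 of 12655 genes were called, and at an unadjusted p under 0.05 there were 18 members lower and 1 higher, against 9.3% and 10.5% of all genes, with a median of -0.46. Without Post control 3, as counted, 14 members were lower (background 1.19%).

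Long and short members were then set apart. The 20 long members had transcripts from 6808 nt (Dot1l) upward and the 20 short ones up to 6755 nt (Setd5), so these members just inside and just outside the division are nearly equal in length; in the 2'-FL arm they changed by -1.98 and -1.34 on the log2 scale. In that arm 18 of 20 long members fell with a median of -2.00, and 11 of 20 short members fell with a median of -0.71, a difference of medians of -1.29. Against Post control the long members were lower in 18 of 20 cases (median -1.56), and the short ones lower in 8 and higher in 3 (median -0.21). Without Post control 3 these counts were 17, 7 and 2. The medians in the control arm were -0.36 and -0.24. Without Post control 3, 7 long members and 1 short member were called lower there (background 6.09%). Across the 40 members rho between length and log2 change was -0.639 in the 2'-FL arm, and it was -0.559 across 12655 genes. These values describe genes measured in the same libraries and carry no test.

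The correction made the gap smaller. Its difference of medians was -0.46 in the 2'-FL arm (11 of 20 long members lower and 2 higher, 3 of 20 short members lower and 2 higher) and -0.75 against Post control (14 long lower and 0 higher, 4 short lower and 2 higher; without Post control 3, 11 long and 2 short lower and 0 higher). Over members rho was then -0.320 and -0.496, whereas over all genes it was -0.0492 and -0.0360. Members were also compared with all genes of like length, as counted. From 4000 to 6000 nt the median change in the 2'-FL arm was -0.76 for 11 members and -0.70 for 2575 genes. From 6000 to 8000 nt it was -1.98 for 9 members and -1.09 for 971 genes, from 8000 to 10000 nt -1.61 for 6 members and -1.18 for 355 genes, and from 10000 nt upward -2.36 for 8 members and -1.34 for 267 genes. Corrected, the medians of members and all genes were -0.58 and -0.10 from 6000 to 8000 nt, -0.13 and -0.17 from 8000 to 10000 nt, and -0.61 and -0.11 above that. GC content also went with the change among the members (rho -0.459). Of the 11 short members with GC above the member median of 50.8%, 9 fell, and of the 9 below it 2 fell, while among long members 9 of 9 and 9 of 11 fell.

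**Figure D2:**
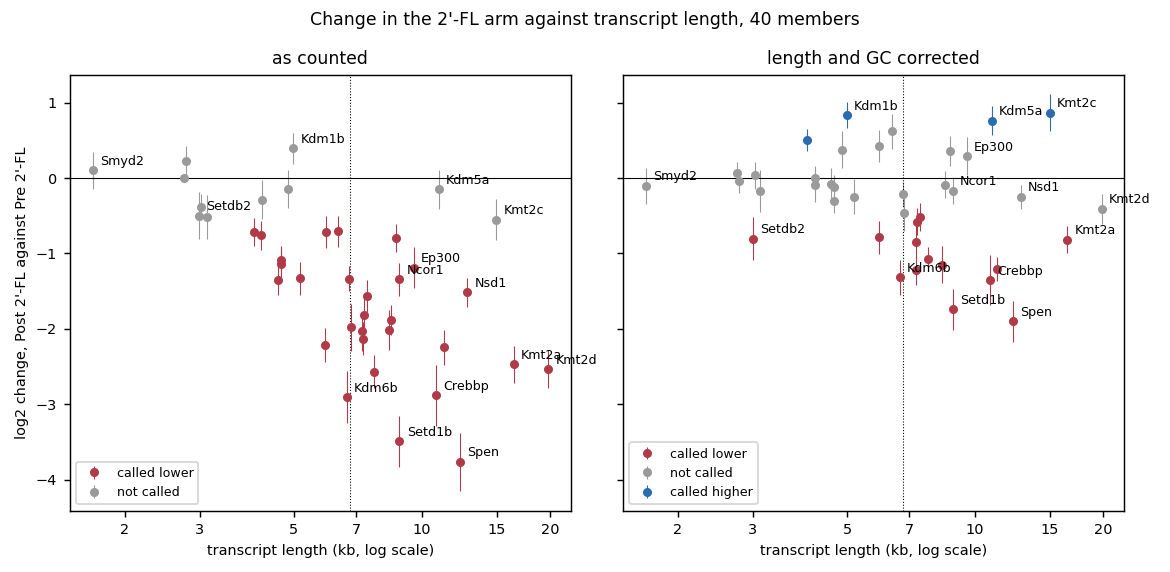
Each point is a member, with transcript length in kb on a log axis and the fitted log2 change of Post 2'-FL against Pre 2'-FL with its standard error; the dotted line marks the median member length. On the left, as counted, 29 members are called lower (red) and 0 higher; on the right, after the length and GC correction, 14 are called lower and 4 higher (blue), among them the long Kmt2c and Kdm5a.

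Summed over the list, members took 1617 to 1964 CPM in the Pre libraries, 1404, 1341 and 1837 CPM in Post control 1, 2 and 3, and 740 to 835 CPM in Post 2'-FL. The long members' sum was 1.44 to 1.71 times the short members' sum in the Pre libraries, 1.45, 1.37 and 1.85 times in Post control, and 0.728 to 0.856 times in Post 2'-FL. In all 3 Post 2'-FL libraries, and in no other, the short members together had more counts than the long ones.

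The H3K4 methyltransferases fell in the 2'-FL arm in 7 of 8 cases (median -2.17, background 30%). They were lower than in Post control in 7 of 8 (median -1.64, background 19.3%). After correction, 5 were lower and 1 higher in the 2'-FL arm (background 14.9% and 20.7%), and 5 lower against Post control (background 11.5%). Leaving out Post control 3 as well, 2 (Kmt2e and Setd1b) were lower against Post control, while Kmt2a (adjusted p = 0.0504), Kmt2d (adjusted p = 0.058) and Setd1a (adjusted p = 0.101) no longer passed by the edgeR test. Setd1b, the catalytic subunit of a SET1 complex that methylates H3K4 at promoters, had the largest decrease of this group (chromosome 5, 123142193 to 123168629, plus strand, GRCm38). Its levels were 31.4, 19.1 and 23.3 CPM in Pre control, 27.6, 24.5 and 25.8 in Pre 2'-FL, 13.1, 12.1 and 17.4 in Post control and, in Post 2'-FL, 0.947, 3.54 and 2.23. All 3 Post 2'-FL libraries were below all others, and Post control also lay below both Pre groups. The log2 change in the 2'-FL arm was -3.49 (SE 0.34, adjusted p = 2.96e-05), an 11.2-fold decrease, and -2.63 (SE 0.34, adjusted p = 0.000768) against Post control. With the correction the decreases remained called, at -1.74 (SE 0.27, adjusted p = 0.000423) and -1.52 (SE 0.27, adjusted p = 0.00434).

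Kmt2d and Kmt2c encode the paired catalytic subunits of complexes that monomethylate H3K4 at enhancers, and their long transcripts (19823 and 14967 nt) moved apart. Kmt2d (chromosome 15, 98831669 to 98871204, minus strand) stood at 50.9, 45.6 and 56.1 CPM in the Pre control libraries and 54.4, 57.2 and 50.5 in those of Pre 2'-FL, then 29.7, 32.4 and 54.6 in Post control and, with supplement, 9.09, 11.4 and 7.26 in Post 2'-FL. The Post 2'-FL libraries were the lowest, and Post control 3 was at the Pre level while Post control 1 and 2 were between. Kmt2d changed by -2.54 (SE 0.25, adjusted p = 2.96e-05) in the 2'-FL arm, but by -0.41 (SE 0.19, adjusted p = 0.116) after correction, which did not pass. Against Post control it was lower by both measures, -2.07 (SE 0.25, adjusted p = 0.000705) as counted and -0.79 (SE 0.20, adjusted p = 0.0147) corrected (adjusted p = 0.058 corrected and without Post control 3).

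Kmt2c (chromosome 5, 25271798 to 25498783, minus strand) was singled out after its values were seen. It had 54.8, 38.7 and 40.8 CPM in Pre control, 52.7, 40.5 and 42.7 in Pre 2'-FL, 36.2, 30.7 and 56.9 in Post control and, in Post 2'-FL, 44.5, 25.3 and 23.3. The groups overlapped, with Post 2'-FL 1 among the Pre libraries and the other 2 below all Pre values. Its log2 change in the 2'-FL arm was -0.55 (SE 0.28, adjusted p = 0.106) as counted, and 0.87 (SE 0.24, adjusted p = 0.0138) after correction, where it was called higher. The log2 ratio of Kmt2c to Kmt2d CPM within a library, read only for how it differs between groups, averaged -0.20 ± 0.29 in Pre control, -0.26 ± 0.23 in Pre 2'-FL, 0.09 ± 0.18 in Post control and 1.71 ± 0.57 in Post 2'-FL (each mean ± SD of 3 libraries), and the lowest Post 2'-FL library, at 1.15, was above the highest of the other 9, at 0.28.

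Among the other H3K4 enzymes, Kmt2a and Kmt2b, which maintain the mark at developmental and other CpG-rich promoters, changed by -2.47 (SE 0.25) and -1.88 (SE 0.20) in the 2'-FL arm. After correction Kmt2a remained lower, at -0.81 (edgeR adjusted p = 0.00287), and Kmt2b was at -0.09 (adjusted p = 0.725). Setd1a, the relative of Setd1b, changed by -2.21 (SE 0.23) and after correction by -0.79 (adjusted p = 0.0125). Kmt2e and Setd7 fell by 2.13 and 1.56 and after correction by 1.23 and 0.52 on the log2 scale, although corrected and without Post control 3 Setd7 did not pass (edgeR adjusted p = 0.0508).

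The enzymes of H3K36 and H3K79 were lower together in the counts. Of all genes, 30% were lower in the 2'-FL arm and 19.3% against Post control. Setd2, which lays down H3K36 trimethylation, Nsd1 and Ash1l, which place lower methylation of that lysine, and Dot1l, the H3K79 methyltransferase, fell in 4 of 4 cases in the 2'-FL arm (-2.24 to -1.51) and were lower in 4 of 4 against Post control (-1.94 to -1.35). Corrected, Setd2 (-1.15) and Ash1l (-1.21) remained lower in the 2'-FL arm, while Nsd1 was at -0.25 and Dot1l at -0.47 without passing. Against Post control 4 of 4 remained lower after correction (background 11.5%), from -1.08 for Setd2 to -0.72 for Nsd1. None of the 4 passed in the control arm, but as counted and without Post control 3, 1 of 4 was lower there (background 6.09%).

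The H3K9 methyltransferases changed less as counted, but all of them except Prdm2 are short members, as are most demethylases. Most H3K4 enzymes and all H3K36 or H3K79 enzymes, acetyltransferases and corepressors are long members. Role and transcript length therefore cannot be told apart in these group counts. Of the 6 H3K9 enzymes, 4 fell in the 2'-FL arm (median -0.72, background 30%). They were led by Prdm2, a large zinc finger protein with a PR/SET domain, at -1.82 (SE 0.23) and -0.58 corrected (edgeR adjusted p = 0.0211). Against Post control Prdm2 was the 1 enzyme of this group called lower after correction, and it did not pass there without Post control 3 (edgeR adjusted p = 0.0905). Setdb1, which silences retroelements together with Trim28, changed by -1.08 and corrected by -0.31, which did not pass. The partners Ehmt1 and Ehmt2, which form the main H3K9 dimethylating complex, fell by 0.71 and 0.72 as counted, but after correction stood at 0.43 (adjusted p = 0.137) and 0.50 (adjusted p = 0.0181), so that Ehmt2 was called lower in one and higher in the other. Setdb2 was at -0.50 (adjusted p = 0.183) as counted and, corrected, at -0.80 (adjusted p = 0.0397). Suv39h1, an enzyme of heterochromatin trimethylation that lies on the X chromosome, passed in none of the comparisons, at -0.52 (adjusted p = 0.153) in the 2'-FL arm.

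Ezh1 and Ezh2 are the alternative catalytic subunits of Polycomb repressive complex PRC2, the H3K27 methyltransferase, Ezh2 being typical of dividing cells and Ezh1 of resting ones. Their calls differed in direction. Ezh1 (chromosome 11, 101191115 to 101226463, minus strand, 4193 nt) had 34.5, 37.4 and 31.6 CPM in the Pre control libraries and 37.2, 32.8 and 36.8 in those of Pre 2'-FL, then 35.6, 43.0 and 43.7 in Post control and, with supplement, 17.6, 26.9 and 18.4 in Post 2'-FL. Every Post 2'-FL library was below every other library. Ezh1 was lower in Post 2'-FL than in Post control by -0.95 (SE 0.19, adjusted p = 0.0021) as counted and -0.51 (SE 0.16, adjusted p = 0.0394) corrected, although without Post control 3 the corrected value no longer passed (adjusted p = 0.0807). Over the 2'-FL arm the change was -0.76 (SE 0.19, adjusted p = 0.00442) as counted and 0.00 (SE 0.16, adjusted p = 0.994) corrected.

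Ezh2 (chromosome 6, 47530139 to 47595341, minus strand, 2787 nt) went the other way between the Post groups. It stood at 22.6, 19.9 and 26.6 CPM in Pre control, 24.9, 22.0 and 26.3 in Pre 2'-FL, 17.9, 15.2 and 18.0 in Post control and, in Post 2'-FL, 36, 24.0 and 25.7. The Post control libraries were all below the other 9, and the 3 Post 2'-FL libraries overlapped both Pre groups. Ezh2 was higher in Post 2'-FL than in Post control by 0.74 (SE 0.20, adjusted p = 0.0101), and corrected by 0.46 (SE 0.16, adjusted p = 0.0589), which did not pass. In the control arm it was at -0.43 (SE 0.20, adjusted p = 0.16) without passing. The log2 ratio of Ezh1 to Ezh2 averaged 0.59 ± 0.33 in Pre control, 0.55 ± 0.05 in Pre 2'-FL, 1.26 ± 0.25 in Post control and -0.45 ± 0.60 in Post 2'-FL (mean ± SD, n = 3), without overlap between the Post groups.

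Markers of crypt stem and cycling cells were partly higher in the same comparison as Ezh2. The summed level of the 10 markers was 305 to 411 CPM in Post control and 474 to 678 CPM in Post 2'-FL, against 464 to 730 CPM in Pre control and 437 to 838 CPM in Pre 2'-FL. None of the 10 was at 0 in all libraries. Against Post control 4 of 10 (Smoc2, Pcna, Ccnb1 and Cdk1) were higher as counted, where 18.8% of all genes were, and 2 of 10 (Smoc2 and Cdk1) were higher corrected, where 9.9% were. Mki67 (-0.08), Top2a (0.09) and Mcm6 (-0.07) did not pass there. In the control arm 6 of 10 were lower as counted (background 6.33%). In the 2'-FL arm, where Ezh2 was at 0.23 without passing, 4 of 10 (Lgr5, Mki67, Top2a and Mcm6) were lower and Pcna higher (background 30% and 25.3%). The part of these cells in the Ezh2 values was not tested.

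**Figure D3:**
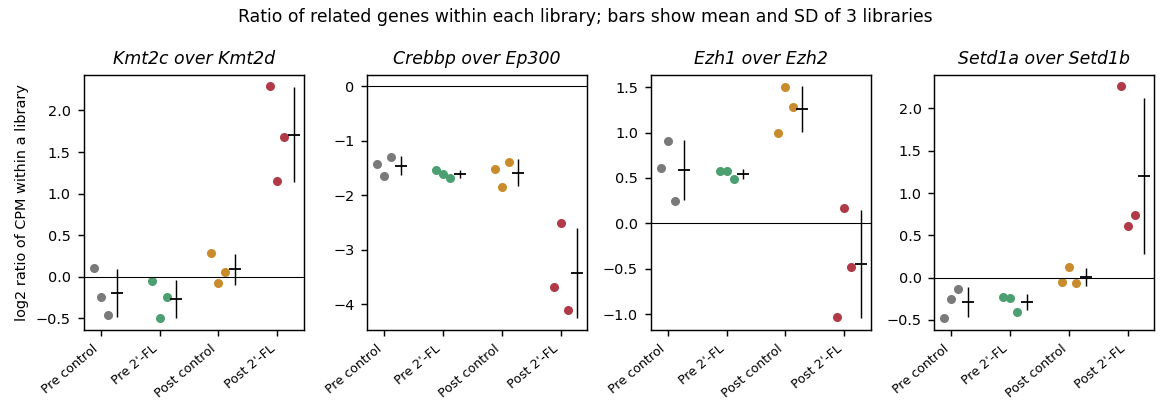
Points are the log2 ratio of the CPM of related genes within each library, in the 4 groups, with the mean and SD of 3 libraries beside them. In Post 2'-FL the ratio of Kmt2c to Kmt2d and of Setd1a to Setd1b is higher than in all other libraries, and that of Crebbp to Ep300 and of Ezh1 to Ezh2 is lower.

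Of the other SET proteins, Setd3 was at 0.00 in the 2'-FL arm (adjusted p = 1), and Setd5, a large chromatin protein, fell by 1.34 but by 0.22 without passing after correction. Smyd2, which methylates p53 and other proteins besides histones, has the shortest transcript of the list (1680 nt; chromosome 1, 189880492 to 189922363, minus strand). Its levels were 16.3, 16.1 and 22.5 CPM in the Pre control libraries and 13.2, 24.7 and 19.5 in those of Pre 2'-FL, then 9.09, 13.3 and 12.2 in Post control and, with supplement, 20.8, 18.2 and 22.5 in Post 2'-FL. The Post groups did not overlap, and Post 2'-FL lay within the range of Pre 2'-FL. Smyd2 was higher in Post 2'-FL than in Post control by 0.83 (SE 0.25, adjusted p = 0.018). Corrected, the value was 0.69 (SE 0.24, adjusted p = 0.0562), and it also missed the threshold without Post control 1 (adjusted p = 0.0578) or without Post 2'-FL 3 (adjusted p = 0.0574).

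Of 12 demethylases, 7 fell in the 2'-FL arm and 0 rose (median -0.75), where 30% of all genes were lower and 25.3% higher. Corrected, 2 were lower and 2 higher (median -0.02), near the shares of all genes (14.9% and 20.7%). Kdm6b, the JmjC enzyme that removes H3K27 trimethylation and is induced in inflammatory responses, had the largest decrease (chromosome 11, 69398508 to 69413675, minus strand, 6654 nt). Its levels were 95.1, 74.3 and 77.5 CPM in Pre control, 81.6, 54.5 and 56.1 in Pre 2'-FL, 47.0, 40.4 and 72.5 in Post control and, in Post 2'-FL, 4.55, 13.7 and 7.07. The highest Post 2'-FL library, at 13.7 CPM, was far below the lowest of the other 9 libraries, at 40.4 CPM. Kdm6b changed by -2.91 (SE 0.34, adjusted p = 3.94e-05) in the 2'-FL arm and by -2.64 (SE 0.34, adjusted p = 0.000768) against Post control, and corrected by -1.32 (SE 0.23, adjusted p = 0.000965) and -1.61 (SE 0.24, adjusted p = 0.00279). At 6654 nt it is counted among the short members.

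Kdm2a and Kdm2b are JmjC proteins that bind unmethylated CpG islands and act on H3K36. As counted both fell in the 2'-FL arm, but their calls differed in the control arm and against Post control. Kdm2a (chromosome 19, 4314419 to 4398285, minus strand) had 128, 93.8 and 82.1 CPM in the Pre control libraries and 103, 92.0 and 93.9 in those of Pre 2'-FL, then 87.5, 90.5 and 126 in Post control and, with supplement, 15.5, 32.3 and 22.5 in Post 2'-FL. Only the Post 2'-FL libraries stood apart, all of them below the other 9. Its log2 change was -2.03 (SE 0.26, adjusted p = 5.45e-05) in the 2'-FL arm and -2.11 (SE 0.26, adjusted p = 0.000705) against Post control, and -0.85 (SE 0.21, adjusted p = 0.00665) and -1.42 (SE 0.21, adjusted p = 0.00279) corrected. In the control arm it was 0.00 (SE 0.25, adjusted p = 0.996).

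Kdm2b, which also brings a Polycomb complex to CpG islands (chromosome 5, 122870665 to 122989823, minus strand), was low in both Post groups. It had 19.1, 18.9 and 19.3 CPM in Pre control, 18.9, 22.7 and 18.3 in Pre 2'-FL, 10.6, 7.13 and 9.42 in Post control and, in Post 2'-FL, 9.66, 8.16 and 5.95. No Post library reached the lowest Pre library, and the Post groups overlapped. Kdm2b was the only member called in the control arm as counted, at -1.07 (SE 0.22, adjusted p = 0.0107), and -0.72 (SE 0.22, adjusted p = 0.0481) corrected; without Post control 2 the adjusted p was 0.0601, and corrected and without Post control 3 it was 0.125. Its change in the 2'-FL arm was -1.33 (SE 0.22, adjusted p = 0.000257), and -0.24 (SE 0.23, adjusted p = 0.424) corrected. Against each other the Post groups were at -0.20 (SE 0.23, adjusted p = 0.515), and the interaction was -0.26 (SE 0.31, adjusted p = 0.587).

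Kdm1b, a flavin-dependent H3K4 demethylase, was one of 3 members higher in Post 2'-FL than in Post control (chromosome 13, 47043499 to 47085279, plus strand). Its levels were 22.0, 25.4 and 18.3 CPM in the Pre control libraries and 24.8, 24.1 and 20.3 in those of Pre 2'-FL, then 18.6, 21.6 and 21.5 in Post control and, with supplement, 38.4, 28.9 and 23.8 in Post 2'-FL. The Post groups did not overlap, by a narrow margin, and Post 2'-FL 1 was the highest of all. The difference was 0.56 (SE 0.21, adjusted p = 0.0432) as counted and 0.73 (SE 0.18, adjusted p = 0.0137) corrected, and corrected and without Post control 3 its adjusted p was 0.0585. As counted it no longer passed when any of 6 single libraries was left out, with 0.188 as the highest adjusted p (without Post 2'-FL 1). Kdm1a, its relative and the catalytic subunit of the CoREST complex, was at -0.17 (adjusted p = 0.453) between the same groups.

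Kdm5a, which removes H3K4 trimethylation, was singled out after its values were seen because it was not called lower in spite of a 10944 nt transcript (chromosome 6, 120364124 to 120444574, plus strand). It had 31.8, 25.1 and 23.1 CPM in Pre control, 34.7, 30 and 22.5 in Pre 2'-FL, 27.4, 18.6 and 35.3 in Post control and, in Post 2'-FL, 34.1, 22.9 and 22.0. All 4 groups overlapped. Its log2 change in the 2'-FL arm was -0.15 (SE 0.26, adjusted p = 0.644) as counted and 0.76 (SE 0.20, adjusted p = 0.0086) corrected. Its relative Kdm5b, 8714 nt long, fell by 0.80 (SE 0.18) as counted and was at 0.36 (SE 0.20) corrected. Of the H3K9 demethylases, Kdm4a and Kdm4b fell by 1.14 and 1.36 and Kdm3b by 0.71, while Kdm4c (-0.29) and Kdm3a (-0.14) did not pass. Corrected, none of these 5 passed in the 2'-FL arm, with values from -0.12 for Kdm4a to 0.62 for Kdm3b. Kdm3b was called higher than in Post control after correction, at 0.78 (SE 0.24, adjusted p = 0.0347) (adjusted p = 0.111 without Post control 3), and was at -0.07 as counted.

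The 5 acetyltransferases and corepressors fell in 5 of 5 cases in the 2'-FL arm (median -2.57, background 30%). Against Post control 5 of 5 were lower (median -1.85, background 19.3%), and Ep300 lost this call without Post control 3. Corrected, 3 and 4 were lower (background 14.9% and 11.5%). In the control arm 0 were called as counted, and 4 of 5 were lower without Post control 3 (background 6.09%). Spen, a very large RNA-binding corepressor known for Notch target repression and for X inactivation (chromosome 4, 141467890 to 141538597, minus strand, 12299 nt), had the largest decrease of all 40. It stood at 61.7, 48.5 and 48.7 CPM in the Pre control libraries and 41.9, 44.8 and 44.6 in those of Pre 2'-FL, then 20.2, 18.6 and 46.1 in Post control and, with supplement, 1.89, 4.93 and 2.60 in Post 2'-FL. Post control 3 was near the Pre libraries and the other 2 Post control libraries were well below it, while all 3 Post 2'-FL libraries were lower still. Spen changed by -3.76 (SE 0.38, adjusted p = 2.96e-05) in the 2'-FL arm, a 13.6-fold decrease, and by -3.15 (SE 0.38, adjusted p = 0.000705) against Post control. The corrected values were -1.90 (SE 0.27, adjusted p = 0.000273) and -1.94 (SE 0.27, adjusted p = 0.00279), and the interaction was -2.88 (SE 0.49, adjusted p = 0.0159) as counted and -1.59 (SE 0.35, adjusted p = 0.061) corrected.

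Crebbp and Ep300 encode the paired acetyltransferases CBP and p300, close relatives with transcripts of 10820 and 9566 nt. Crebbp (chromosome 16, 4081328 to 4213997, minus strand) had 28.1, 18.9 and 20.7 CPM in Pre control, 21.0, 17.5 and 19.0 in Pre 2'-FL, 12.9, 8.77 and 25.6 in Post control and, in Post 2'-FL, 2.65, 3.70 and 1.30. Post 2'-FL lay below all the others, and Post control ranged from 8.77 to a Pre-like 25.6 CPM in Post control 3. Its change was -2.88 (SE 0.41, adjusted p = 8.39e-05) in the 2'-FL arm and -2.62 (SE 0.41, adjusted p = 0.000796) against Post control, and corrected -1.35 (SE 0.33, adjusted p = 0.00611) and -1.67 (SE 0.33, adjusted p = 0.00553).

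Ep300 (chromosome 15, 81585351 to 81652077, plus strand), chosen for comparison after its values were seen, had 75.3, 59.3 and 51.0 CPM in the Pre control libraries and 61.3, 53.6 and 61.3 in those of Pre 2'-FL, then 37.1, 31.8 and 66.7 in Post control and, with supplement, 34.3, 20.9 and 22.3 in Post 2'-FL. Post 2'-FL was below both Pre groups but overlapped Post control. Ep300 changed by -1.19 (SE 0.28, adjusted p = 0.00253) in the 2'-FL arm and 0.29 (SE 0.26, adjusted p = 0.39) corrected. The log2 ratio of Crebbp to Ep300 averaged -1.46 ± 0.18 in Pre control, -1.62 ± 0.07 in Pre 2'-FL, -1.59 ± 0.24 in Post control and -3.43 ± 0.83 in Post 2'-FL (mean ± SD, n = 3), and the Post 2'-FL libraries were below the other 9.

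Rere is an atrophin-family corepressor of nuclear receptors (chromosome 4, 150281646 to 150621966, plus strand, 7728 nt). It had 124, 96.9 and 99.7 CPM in Pre control, 110, 117 and 110 in Pre 2'-FL, 57.9, 57.2 and 89.8 in Post control and, in Post 2'-FL, 15.5, 22.3 and 18.8. Every Post control library lay below every Pre library, and every Post 2'-FL library lay below those. Rere changed by -2.57 (SE 0.22, adjusted p = 2.96e-05) in the 2'-FL arm and -1.07 (SE 0.16, adjusted p = 0.000359) corrected, and in the control arm by -0.64 (SE 0.20, adjusted p = 0.0573), which did not pass.

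Ncor1, the scaffold of the nuclear receptor corepressor complex with Hdac3, was looked at after its values were seen (chromosome 11, 62316426 to 62458541, minus strand, 8852 nt). It had 154, 154 and 105 CPM in the Pre control libraries and 215, 168 and 166 in those of Pre 2'-FL, then 184, 169 and 248 in Post control and, with supplement, 62.1, 82.5 and 71.6 in Post 2'-FL. Post control was above Pre control without overlap, and Post 2'-FL was below every other library. In the control arm Ncor1 was at 0.54 (SE 0.21, adjusted p = 0.108) as counted, without passing, and was called higher at 0.98 (SE 0.18, adjusted p = 0.00537) corrected. Its change in the 2'-FL arm was -1.34 (SE 0.22, adjusted p = 0.000204), and -0.17 (SE 0.18, adjusted p = 0.48) corrected.

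**Figure D4:**
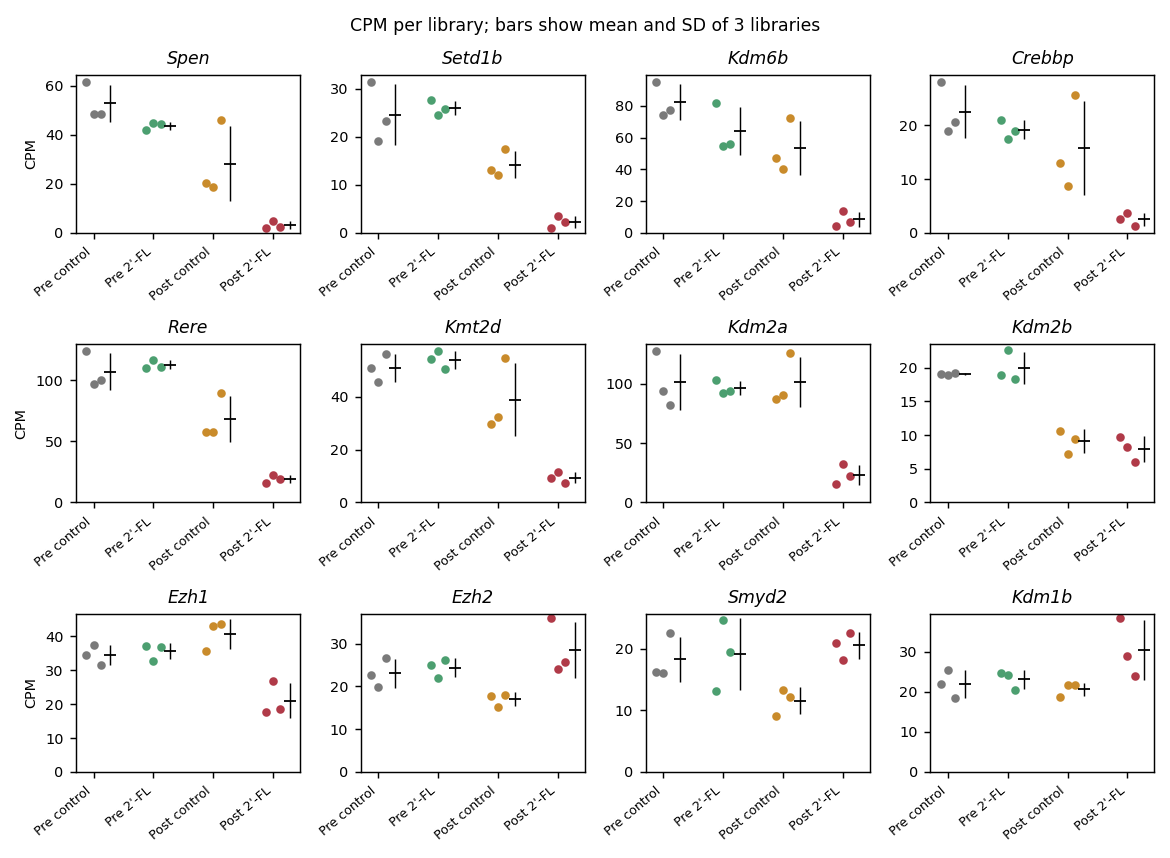
Panels give CPM in each library for 12 members, with group means and SD of 3 libraries as bars on axes that start at 0. Spen, Setd1b, Kdm6b, Crebbp, Rere, Kmt2d and Kdm2a are lowest in the 3 Post 2'-FL libraries, Kdm2b is low in both Post groups, and Ezh2, Smyd2 and Kdm1b are higher in Post 2'-FL than in Post control.

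Read across the list, 26 members were lower in Post 2'-FL than in both Pre 2'-FL and Post control as counted, and 12 of them were lower in both comparisons after correction too. These 12 were the H3K4 enzymes Kmt2a, Kmt2e, Setd1a and Setd1b, the H3K36 enzymes Setd2 and Ash1l, the H3K9 enzyme Prdm2, the demethylases Kdm2a and Kdm6b, and Crebbp, Rere and Spen. Without Post control 3 the calls against Post control ended as counted for Setdb1 and Ep300, which are among the 26. In the same setting the corrected calls against Post control ended for Kmt2a, Setd1a and Prdm2, which left 9 members lower in both after correction. The share of all genes lower in both comparisons was not counted, so the 26, 12 and 9 describe the list alone. Taken singly, the comparisons called 30% and 19.3% of all genes lower as counted, and 14.9% and 11.5% corrected. Within the 2'-FL arm 13 members were lower with and without the correction, 15 lower only as counted and 1 (Setdb2) only corrected. Ehmt2 turned from lower to higher, and 3 (Kdm1b, Kdm5a and Kmt2c) were called higher only after correction.

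Other genes of the same machinery were counted from lists of methyltransferases, demethylases and complex subunits outside the 40. In the 2'-FL arm, of 19 further methyltransferases tested 5 were lower and 0 higher, of 10 further demethylases 4 and 1, of 10 H3K4 complex subunits 5 and 2, of 9 Polycomb subunits 2 and 3, and of 13 corepressor subunits 7 and 2. Corrected, these counts were 2 and 3, 2 and 1, 2 and 2, 2 and 3, and 6 and 3. Over all genes 30% were lower and 25.3% higher as counted, and 14.9% and 20.7% corrected, so the share of several of these groups lay near that of all genes. Among the genes with the smallest p-values, Phf2, a JmjC demethylase, changed by -2.35 (SE 0.24, edgeR adjusted p = 2.96e-05; -1.03 corrected). Hcfc1, a subunit of the SET1 and MLL complexes, was at -1.87 (SE 0.26, adjusted p = 8.73e-05) and -0.33 corrected, which did not pass. Those that rose included Dpy30, a small core subunit of the H3K4 complexes (789 nt), at 1.57 (SE 0.22) as counted but -0.26 corrected. Hdac3, the deacetylase of the Ncor complexes, rose by 0.88 (0.61 corrected) and Sin3b, a scaffold of deacetylase complexes, by 0.73 (1.80 corrected).

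In the control arm the further genes showed 1 of 19 methyltransferases lower, 0 of 10 demethylases called, 1 of 10 H3K4 complex subunits lower, and 2 Polycomb subunits lower and 1 higher of 9 (background 6.33% lower and 4.42% higher). Mecom, a PR/SET transcription factor, was at -1.70 (SE 0.41) and Rbbp7, a histone-binding subunit of PRC2, at -0.71 (SE 0.19). Phf1, an accessory subunit of PRC2, rose by 0.91 (SE 0.24, edgeR adjusted p = 0.0295).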

How the data were processed

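RNA was sequenced from 12 small bowel libraries on an Illumina HiSeq 2000 after TruSeq preparation, per the labels' protocols. The authors deposited estimated counts per gene for each library, labelled raw: 46.25% of the members' values are not whole numbers. Per the submitters' processing notes mm10 and DESeq were used. The aligner, the counter, the gene annotation and whether reads were counted by strand are not given in the sources used here, so overlapping and antisense genes cannot be separated. Each file holds 36186 entries, of which 486 belong to genes (by Entrez identifier) listed more than once. Entries were added up per gene, giving 35791 genes whose totals were then rounded. No libraries held identical values.

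The counts were fitted with edgeR 4.0.16 (R 4.3.3; TMM factors, genes kept by filterByExpr, glmQLFit and glmQLFTest, two-sided) over all 12 libraries with 1 mean per group and 8 residual degrees of freedom. Benjamini-Hochberg adjustment ran over all 13154 genes, and a gene is called at an adjusted p under 0.05. The biological coefficient of variation was 0.238. CPM are computed with TMM library sizes. Lengths and GC are those of the longest transcript matched to a RefSeq mRNA in the GENCODE annotation of GRCm38, the assembly of mm10. The correction fitted natural splines (4 degrees of freedom) of length and GC in each library to log2 CPM (prior count 2) centred per gene and used them as offsets for 12655 genes. It removes any true change that follows length or GC as well.

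The members and the gene lists were chosen with earlier results of these data known. Values in every library are given for up to 6 called members each way per comparison with the largest changes, a mean of at least 5 CPM and groups that do not overlap (overlap was not used for the interaction), for called members opposite in sign to the member median, and for relatives called in opposite directions; other genes are said to be chosen after their values were seen. Further pathway genes are up to 3 called each way with the smallest p-values; 1 such gene is not reported here. Alternatives were DESeq2 1.42.0 and its size factors, other filters, only the groups compared, each library left out, a replicate block, coding length and a division at 5000 nt. Length correction alone, GC correction alone, and both without Post control 3 were added after seeing the data. The fits were tested on simulated data with known changes.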

Additional observations from a re-analysis of the deposited data

Results flagged for a closer look

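For 23 of the 40 members, the log2 change in the 2'-FL arm differed from the log2 change in the control arm by an edgeR interaction test over all 13154 genes (Benjamini-Hochberg adjusted p from 0.0159 to 0.0352). The difference, 2'-FL arm minus control arm on the log2 scale, was negative for Spen (-2.88), Setd1b (-2.71), Crebbp (-2.39), Kdm6b (-2.28), Kmt2d (-2.16), Kdm2a (-2.04), Rere (-1.93) and Ncor1 (-1.89). It was also negative for Kmt2a (-1.86), Dot1l (-1.85), Setd1a (-1.73), Kmt2b (-1.68), Kmt2e (-1.65), Ash1l (-1.58), Setd2 (-1.49) and Prdm2 (-1.48), and for Setd5 (-1.27), Setd7 (-1.27), Nsd1 (-1.2), Kdm4a (-1.01), Ezh1 (-0.999), Kdm4b (-0.97) and Setdb1 (-0.898). Without Post control 3, as counted, 9 of these (Setd7, Setd2, Nsd1, Dot1l, Setdb1, Prdm2, Ezh1, Kdm4a and Kdm4b) no longer passed. After the length and GC correction the same 23 differences ran from -1.59 to -0.07 with adjusted p from 0.0595 to 0.923, and 0 of them passed. Length trends of the libraries differ between the Post groups, and their part in these differences beyond the correction was not tested.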

How the results depend on the processing

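The count of members called lower in the control arm rests on few calls: it was 1 as counted, 2 with the DESeq2 Wald test, 2 with GC correction alone, and 0 to 8 with single libraries left out. Members called higher there were 0 as counted, 2 with the length and GC correction, 1 with length correction alone and 1 with the correction without Post control 3, where 0 were lower. Their median log2 change was -0.33 as counted, -0.00383 with length correction alone, 0.0342 with the full correction, and 0.0714 with the correction without Post control 3.

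In the 2'-FL arm, members lower went from 29 to 14 with the correction, 18 with length correction alone and 13 with the correction without Post control 3. Members higher were 0, 4, 3 and 4 in that order, and 0 to 1 with single libraries left out. The median went from -1.33 to -0.19, -0.39 and -0.19, and to -0.99 with GC correction alone. Long minus short members went from -1.29 to -0.46, -0.79 and -0.46. Against Post control, the median went from -1.01 to -0.48 (correction), -0.61 (length alone) and -0.51 (correction without Post control 3), and long minus short members from -1.35 to -0.75, -0.91 and -0.73. In that last setting 13 were lower and 0 higher, and with single libraries left out 1 to 3 were higher. The interaction called 23 lower, 0 with the correction, 5 with length correction alone, 0 with the correction without Post control 3, and 14 to 23 with single libraries left out. Its median was -1.003, then -0.46, -0.55 and -0.46, and long minus short -1.32, then -0.87, -0.94 and -0.79. Fewer genes were tested under a correction (12655); the cause of the changed calls was not tested.

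Nothing says whether the replicate numbers pair libraries, and they were not treated as pairs. Correlations of same-numbered deviations ran from -0.225 to 0.419, and those of differently numbered ones from -0.358 to 0.311. With 3 libraries a group these values cannot decide whether libraries are paired. With the replicate block 1, 29 and 26 members were lower in the control arm, the 2'-FL arm and against Post control, and 23 in the interaction; Kdm1b lost its call. With the replicate block and the correction, 1 member was higher in the control arm (median 0.0435), 13 were lower and 4 higher in the 2'-FL arm (median -0.19, long minus short -0.47), the median against Post control was -0.48 (long minus short -0.75), and the interaction called 0 (median -0.47, long minus short -0.85). The remaining alternatives, such as other size factors and filters, kept each count within 1.5 times. A fit of only the groups compared was not run for the interaction. With 3 libraries a group and as few as 5 counts for a member, small changes are not detectable.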
